A study of Mus musculus with 9 samples.

Results

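The genes described here are 10 members of the Notch pathway, in cultures of muscle precursor cells given 2 levels of the amino acid glycine. They were Notch1, Notch2, Notch3, Dll1, Jag1, Hes1, Hey1, Heyl, Rbpj and Numb, and were taken as the rows of the deposited expression table whose symbol equals one of these names. Each name had 1 row, so the members were 10 of 53715 gene IDs. RNA was sequenced from primary myoblasts of the mdx mouse, strain C57BL/10ScSn-Dmdmdx/J, at passage 1. Both groups shared the mdx background, in which the dystrophin gene is mutated. There were 3 libraries of cells at 0.2 mM glycine and 6 of cells at 0.8 mM. The labels do not name a medium, a duration, an age or a method of purifying the cells. Nor do they state that each library stands for its own culture or animal, and the p-values therefore cover only the spread between these libraries, part of which may be technical. By their labels the libraries form 2 numbered series, and each series had its own glycine level, so series and glycine cannot be told apart.

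Notch signalling passes between touching cells. A Delta or Jagged ligand on one cell binds a Notch receptor on its neighbour, proteases of the ADAM family and gamma-secretase cut the receptor, and the freed intracellular part joins the DNA-binding factor RBPJ and switches on genes of the HES and HEY families. In skeletal muscle the pathway is known for keeping stem cells quiescent and for holding back differentiation through HES and HEY repressors, while Numb is known as an inhibitor that promotes removal of the receptor.

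Values are TPM, transcript abundances that divide reads by gene length and scale each library to a common sum, so TPM levels can be set beside each other between genes. The number of reads behind a value is unknown. Tested genes were the 10049 that reached 1 TPM in 3 or more libraries, and they included 6 of the 10 members. Notch3, Dll1, Jag1 and Hey1 were under this filter. The test was limma on log2(TPM + 1), 0.8 mM minus 0.2 mM, with p-values adjusted by Benjamini-Hochberg over all tested genes and a threshold of 0.05. The pseudocount makes this scale understate the change of low genes. "Rose" and "fell" are used for genes that passed, for the step from 0.2 to 0.8 mM.

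The HES and HEY target genes were higher and Rbpj and Numb lower at 0.8 mM glycine, while Notch2, the receptor gene with the highest mean TPM, did not pass. Of the 6 tested members, 2 rose (Hes1 and Heyl), 2 fell (Rbpj and Numb) and 2 did not pass (Notch1 and Notch2). Of all tested genes 26.6% passed, with 16.7% that rose and 9.81% that fell. That split was 1683 that rose and 986 that fell, against 1419 and 1279 with median-ratio scaling and 1364 and 1340 with quantile normalization. The members' count is a description, because Notch1 and Heyl came through the filter only by their libraries at 0.8 mM, with 0 and 1 of 3 libraries at 0.2 mM reaching 1 TPM. With no filter on low values all 10 members could be tested, and 3 rose (Notch3, Hey1 and Heyl) and 1 fell (Rbpj), where 10.3% of 22474 genes passed, 6.42% upward and 3.89% downward. In that fit Hes1 and Numb missed the threshold (limma adjusted p = 0.0522 and 0.0519). Without 0.2 mM replicate 1, or without 0.2 mM replicate 3, 2 of the 6 members passed, Heyl and Rbpj in both cases.

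**Figure D1:**
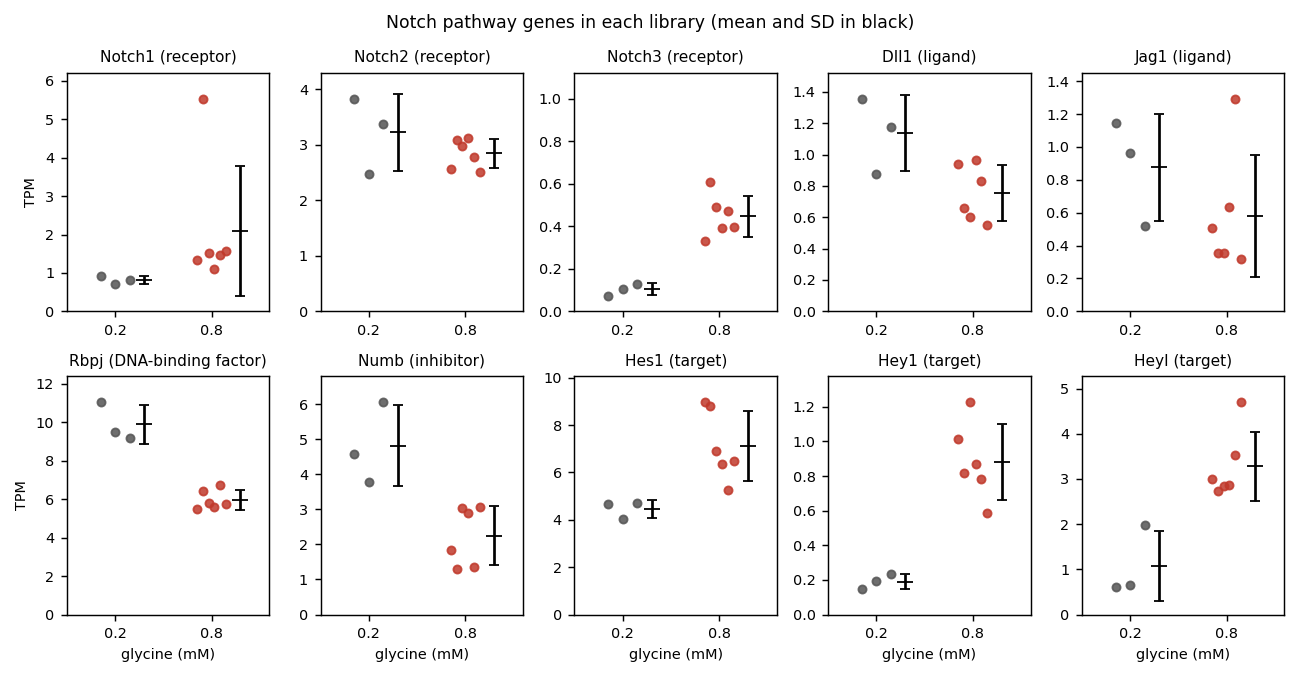
TPM (vertical axis, from 0) of the 10 members, 1 per panel, with a point for every library: grey for the 3 at 0.2 mM glycine, red for the 6 at 0.8 mM, and black for mean and SD. The groups do not overlap for Notch1, Notch3, Rbpj, Numb, Hes1, Hey1 and Heyl, and they overlap for Notch2, Dll1 and Jag1.

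The groups' libraries did not overlap for 7 of the 10 members. Among the 6 tested they did not overlap for 5, where 28.2% of all tested genes showed no overlap. Those 5 include Notch1 and Heyl, which came through the filter only by their libraries at 0.8 mM, so this count too is a description. Among the 4 under the filter they did not overlap for 2, where 3.74% of genes above 0 TPM under the filter showed none. That share includes genes at 0 in libraries of both groups, which cannot be free of overlap. The 4 members were above 0 in all 9 libraries, so the share is not a like measure for them.

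The targets are transcriptional repressors of the basic helix-loop-helix class that stand at the end of the pathway. Hes1, the target shared by many tissues (chromosome 16, 30064384 to 30067796 on GRCm38, plus strand), was at 4.65, 4.04 and 4.69 TPM in the 3 libraries at 0.2 mM and at 5.25 to 8.97 TPM, with a median of 6.69, in the 6 at 0.8 mM. Every library at 0.8 mM lay above every library at 0.2 mM, and libraries 1 and 2 at 0.8 mM were the highest. Its mean was 4.46 ± 0.365 and 7.12 ± 1.47 TPM (SD, n = 3 and 6), and it rose by 0.56 on the log2 scale, with an SE of 0.16 (limma adjusted p = 0.0230). The call rested on few libraries at 0.2 mM: the adjusted p was 0.0557, 0.0915 and 0.0519 without 0.2 mM replicates 1, 2 and 3.

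Heyl, a HEY family member expressed in muscle precursors (chromosome 4, 123233556 to 123249875, plus strand), had the largest fold change of the tested members. It was at 0.617, 0.650 and 1.97 TPM at 0.2 mM and at 2.72 to 4.70 TPM, with a median of 2.93, at 0.8 mM. No values overlapped, and 0.2 mM replicate 3 stood between the rest of its group and the other group. Heyl rose from 1.08 ± 0.772 to 3.28 ± 0.755 TPM, or by 1.08 on the log2 scale, with an SE of 0.22 (limma adjusted p = 0.00361), and passed with each of the 9 libraries left out in turn (adjusted p up to 0.0235). In the fit with no filter it was lost without 0.2 mM replicate 1 (0.0755) or replicate 2 (0.0735).

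Hey1, its relative (chromosome 3, 8663359 to 8667256, minus strand), was at 0.145, 0.193 and 0.233 TPM at 0.2 mM and at 0.587 to 1.23 TPM, with a median of 0.842, at 0.8 mM. All 6 libraries at 0.8 mM lay above the 3 at 0.2 mM, although every value was low. With no filter its log2 fold change was 0.65 with an SE of 0.12 (limma adjusted p = 0.00839), and it passed with each library left out in turn in that fit. Heyl exceeded Hey1 in all 9 libraries. The summed TPM of Hes1, Hey1 and Heyl was 4.88 to 6.89 at 0.2 mM and 9.56 to 13.0 at 0.8 mM.

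Rbpj, the DNA-binding partner of the cleaved receptor (chromosome 5, 53466152 to 53657362, plus strand), had the smallest adjusted p of the tested members. It was at 11.1, 9.49 and 9.17 TPM at 0.2 mM and at 5.48 to 6.73 TPM, with a median of 5.77, at 0.8 mM. All 6 libraries at 0.8 mM lay below the lowest at 0.2 mM. Rbpj fell from 9.91 ± 1.01 to 5.96 ± 0.50 TPM, by 0.65 on the log2 scale, with an SE of 0.10 (limma adjusted p = 0.000894). With 1 choice changed at a time it passed under each of 18 settings, with adjusted p from 0.000314 to 0.0363, and it missed the threshold where no filter was combined with a replicate block, a term for the library number (0.147). Its spread was small, with a residual SD of 0.11 on the log2 scale, where the median over tested genes was 0.23. Within libraries Rbpj exceeded Hes1 in 3 of 3 at 0.2 mM and in 1 of 6 at 0.8 mM.

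Numb, the receptor's inhibitor (chromosome 12, 83794034 to 83921934, minus strand), was at 4.59, 3.78 and 6.07 TPM at 0.2 mM and at 1.31 to 3.06 TPM, with a median of 2.36, at 0.8 mM. The groups did not overlap, but the 6 libraries at 0.8 mM were split, with 3 at 1.31 to 1.84 TPM and 3 at 2.88 to 3.06 TPM. Numb fell from 4.81 ± 1.16 to 2.25 ± 0.846 TPM, by 0.86 on the log2 scale, with an SE of 0.23 (limma adjusted p = 0.0185). It missed the threshold without 0.2 mM replicate 1 (adjusted p = 0.0527) or replicate 3 (0.0886). Numbl, a paralogue of Numb that was in the list of inhibitors, did not pass (limma adjusted p = 0.586). Numb exceeded Numbl in 3 of 3 libraries at 0.2 mM, and in 3 of 6 at 0.8 mM. Exons of Numb, and of Notch1, Notch3 and Dll1, overlap antisense genes in GENCODE, and those of Notch2 overlap a gene on the same strand, Gm42820. With no strand setting stated, reads of such pairs cannot be told apart. The partner of Dll1, A930024N18Rik, was at 0.0856 to 0.398 TPM, and that of Notch3, Gm17276, at 0 to 0.112 TPM. The partners of Numb, Notch1 and Notch2 had no row, so they have no level to set beside these members.

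The receptors are single-pass membrane proteins, and Notch2 had the highest mean TPM of the 3 receptor members in both groups. Notch2 (chromosome 3, 98013527 to 98150361, plus strand) was at 3.83, 2.47 and 3.37 TPM at 0.2 mM and at 2.51 to 3.13 TPM, with a median of 2.88, at 0.8 mM. The groups overlapped, and the log2 fold change was -0.12 (95% interval -0.42 to 0.17, limma adjusted p = 0.553). The interval leaves room for a fall or a small increase.

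Notch1 (chromosome 2, 26457903 to 26516663, minus strand) was at 0.919, 0.701 and 0.825 TPM at 0.2 mM and at 1.09 to 5.53 TPM, with a median of 1.49, at 0.8 mM. Every library at 0.8 mM was above those at 0.2 mM, yet Notch1 did not pass (log2 fold change 0.64, 95% interval -0.06 to 1.34, limma adjusted p = 0.167). One library, 0.8 mM replicate 2, was at 5.53 TPM while the other 5 of its group lay between 1.09 and 1.58 TPM. Without it the log2 fold change was 0.40 and the adjusted p 0.0646. The residual SD of Notch1, 0.51 on the log2 scale, was higher than that of 91.3% of tested genes.

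Notch3 (chromosome 17, 32120820 to 32166852, minus strand), a receptor also known from the pericytes of small vessels, had the lowest mean TPM of the members in both groups. At 0.8 mM its range overlapped those of Jag1, Dll1 and Hey1. Notch3 was at 0.0737, 0.107 and 0.129 TPM at 0.2 mM and at 0.329 to 0.607 TPM, with a median of 0.433, at 0.8 mM. The groups did not overlap, and with no filter the log2 fold change was 0.39 with an SE of 0.08 (limma adjusted p = 0.0106). Notch4, a receptor best known from blood vessels, did not pass (limma log2 fold change 0.37, SE 0.41, adjusted p = 0.565). It reached 3.06 TPM in 0.2 mM replicate 1 and 4.34 TPM in 0.8 mM replicate 3, against 0.329 to 1.76 TPM in the other 7 libraries.

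The ligand members Dll1 and Jag1 are the Delta and Jagged proteins that activate Notch receptors on neighbouring cells. Dll1 (chromosome 17, 15367354 to 15376872, minus strand) was at 1.36, 0.876 and 1.17 TPM at 0.2 mM and at 0.553 to 0.966 TPM, with a median of 0.743, at 0.8 mM. Jag1 (chromosome 2, 137081456 to 137116644, minus strand) was at 1.15, 0.961 and 0.516 TPM at 0.2 mM and at 0.317 to 1.29 TPM, with a median of 0.432, at 0.8 mM. The groups overlapped for both genes. With no filter neither passed (limma adjusted p = 0.305 for Dll1 and 0.538 for Jag1).

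Dll4, another Delta ligand, which is best known from blood vessels, was at 0.269, 0.650 and 0.216 TPM at 0.2 mM and at 1.37 to 1.86 TPM, with a median of 1.47, at 0.8 mM. Its groups were apart, and Dll4 rose by 0.89 on the log2 scale, with an SE of 0.15 (limma adjusted p = 0.00097). Dll4 was the most abundant of the 4 ligands Dll1, Jag1, Dll4 and Jag2 in 6 of 6 libraries at 0.8 mM and in 0 of 3 at 0.2 mM, where Dll1 led in 2 and Jag1 in 1. Its share of their summed TPM was 9.45% to 23.4% at 0.2 mM and 36.2% to 49.8% at 0.8 mM, while that of Dll1 was 31.5% to 56.9% and 16.9% to 24.6%. Jag2 was at 0.173 ± 0.111 and 0.762 ± 0.325 TPM and rose by 0.57 on the log2 scale, with an SE of 0.19 (limma adjusted p = 0.0472), but it missed the threshold with any library left out except 0.8 mM replicate 5 (up to 0.151, without 0.2 mM replicate 1). Under median-ratio scaling it had 0.0544, and after quantile normalization 0.065. No library at 0.2 mM reached 1 TPM for Dll4 or Jag2, so both came through the filter only by the group where they were higher.

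**Figure D2:**
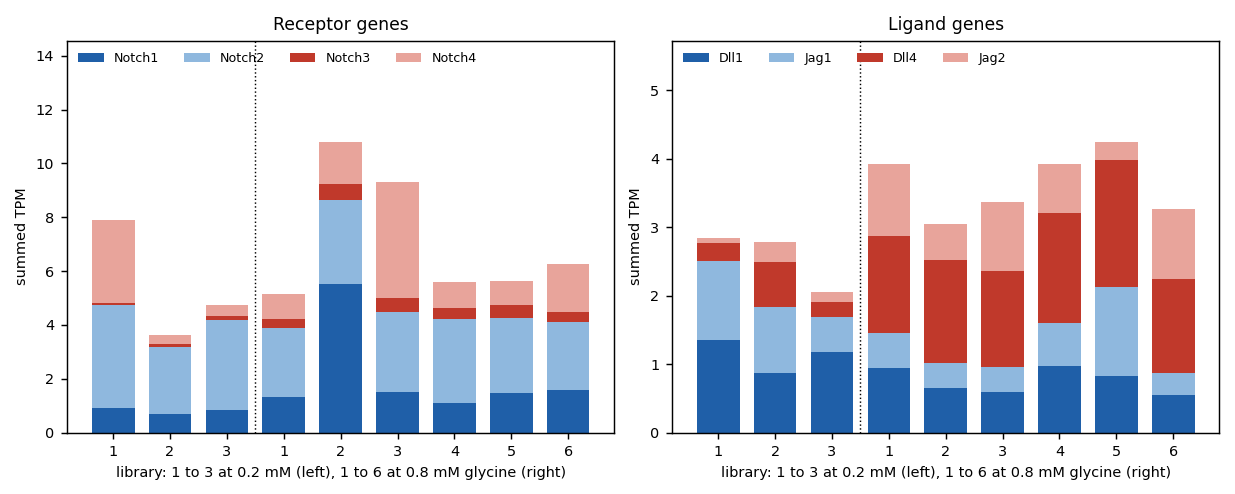
Stacked bars give the TPM of the 4 receptor genes (left) and 4 ligand genes (right) in each library, with 3 libraries at 0.2 mM before the dotted line and 6 at 0.8 mM after it. Notch2 is the largest receptor segment in all 3 libraries at 0.2 mM and in 4 of 6 at 0.8 mM, and Dll4 is the largest ligand segment in all 6 at 0.8 mM.

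Ranked by mean TPM at 0.2 mM, the members ran from Rbpj through Numb, Hes1, Notch2, Dll1, Heyl, Jag1, Notch1 and Hey1 to Notch3. Neighbours whose libraries overlapped in this order were Numb and Hes1, Dll1 and Heyl, Heyl and Jag1, and Jag1 and Notch1. At 0.8 mM the order was Hes1, Rbpj, Heyl, Notch2, Numb, Notch1, Hey1, Dll1, Jag1 and Notch3. There Rbpj and Heyl were the one pair of neighbours whose libraries did not overlap, so the rest of that order was not resolved beyond the spread.

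The wider pathway was read from a list of 64 further genes, of which 63 matched a row and 42 were tested. Of these 9 rose, 2 fell and 31 did not pass, where 26.6% of all tested genes passed. This count too is a description, because Dll4, Jag2 and Rfng, which rose, came through the filter only by their libraries at 0.8 mM. For them 0, 0 and 2 of 3 libraries at 0.2 mM reached 1 TPM. The median log2 fold change of the 42 was 0.11 against 0.06 for all tested genes. Without 0.2 mM replicate 1, 6 rose and 1 fell, and without 0.2 mM replicate 2, 4 rose and 2 fell. With median-ratio scaling 6 rose and 4 fell, and with quantile normalization 5 and 4.

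In the machinery that cuts the receptor, 1 of 7 tested genes rose and 6 did not pass. It was Psenen, a small subunit of gamma-secretase, which rose from 102 ± 1.33 to 119 ± 8.34 TPM (limma adjusted p = 0.0351), though its call was lost with any library left out except 0.8 mM replicates 4 and 5 (up to 0.096). Neither median-ratio scaling (0.206) nor quantile normalization (0.38) gave a call. Among 4 tested genes of receptor maturation and glycosylation, the Fringe glycosyltransferase gene Rfng rose by 0.55 (limma adjusted p = 0.0309), a call lost after quantile normalization (0.0502) and without 0.2 mM replicate 2 (0.141), 0.8 mM replicate 1 (0.0546) or 0.8 mM replicate 5 (0.053). Of the ubiquitin ligases that act on ligands, Mib2 and Neurl1a did not pass (limma adjusted p = 0.873 and 0.068), though Neurl1a did without 0.2 mM replicate 3 (0.0356) or 0.8 mM replicate 5 (0.0468).

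Among nuclear partners, the co-activator Ep300 fell from 2.06 ± 0.443 to 1.04 ± 0.295 TPM (limma log2 fold change -0.58, SE 0.17, adjusted p = 0.0243), and the other 3 tested co-activators and all 6 tested co-repressors did not pass. The call of Ep300 was lost without 0.2 mM replicate 1 (0.115) or replicate 3 (0.0625). Of 9 tested inhibitors and genes of receptor turnover, 1 fell: Dtx4, a Deltex ubiquitin ligase. Dtx4 went from 2.10 ± 0.0789 to 1.09 ± 0.241 TPM (limma adjusted p = 0.012). It passed with each library left out in turn (up to 0.0482), but missed the threshold with the replicate block (0.0945).

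Of the 6 other genes listed as targets, 1 was tested. Hes6, a HES family gene that is not a classical Notch target and is known as an antagonist of Hes1 that favours muscle differentiation, was at 16.6, 17.8 and 25.5 TPM at 0.2 mM and at 37.0 to 48.2 TPM, with a median of 45.9, at 0.8 mM. The groups did not overlap, and Hes6 rose by 1.14 on the log2 scale, with an SE of 0.13 (limma adjusted p = 7.84e-05). Hes2 was listed at 0 in all 9 libraries, and Hes5, Hes7, Hey2 and Nrarp stayed under the filter. Nrarp, a feedback inhibitor of Notch, was listed at 0 in all libraries at 0.2 mM and reached 0.345 TPM at most at 0.8 mM.

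Of the 6 tested niche genes tied to Notch in muscle stem cells, 4 rose, 0 fell and 2 did not pass. Among all tested genes 16.7% rose and 9.81% fell. Col5a3, a chain of collagen V, was at 7.03, 7.14 and 6.77 TPM at 0.2 mM and at 12.4 to 14.0 TPM at 0.8 mM (limma log2 fold change 0.83, SE 0.08, adjusted p = 2.23e-05). Col5a1, another chain of that collagen, rose from 4.72 ± 0.689 to 7.05 ± 0.463 TPM (limma adjusted p = 0.00624), and Col6a2, a chain of collagen VI, from 13.5 ± 1.59 to 18.1 ± 1.66 TPM (limma adjusted p = 0.0146, with 0.0503 and 0.0755 without 0.2 mM replicates 1 and 2). The fourth was Col6a1, named after its values were seen, by 0.28 (limma adjusted p = 0.0279), a call lost under both other scalings (0.0917 and 0.0953) and without 0.8 mM replicate 5 (0.0502) or any library at 0.2 mM (up to 0.09). Col5a2, a further chain of collagen V, also named after its values were seen, was lower at 0.8 mM in every library, at 36.9 ± 1.54 and 32.4 ± 1.66 TPM, but did not pass (limma adjusted p = 0.079), though it did with median-ratio scaling (0.0148) and after quantile normalization (0.0213). Pax7, the transcription factor of muscle stem cells, did not pass (limma adjusted p = 0.13) and came through the filter only by its libraries at 0.8 mM. Calcr, the calcitonin receptor gene, stayed under the filter.

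**Figure D3:**
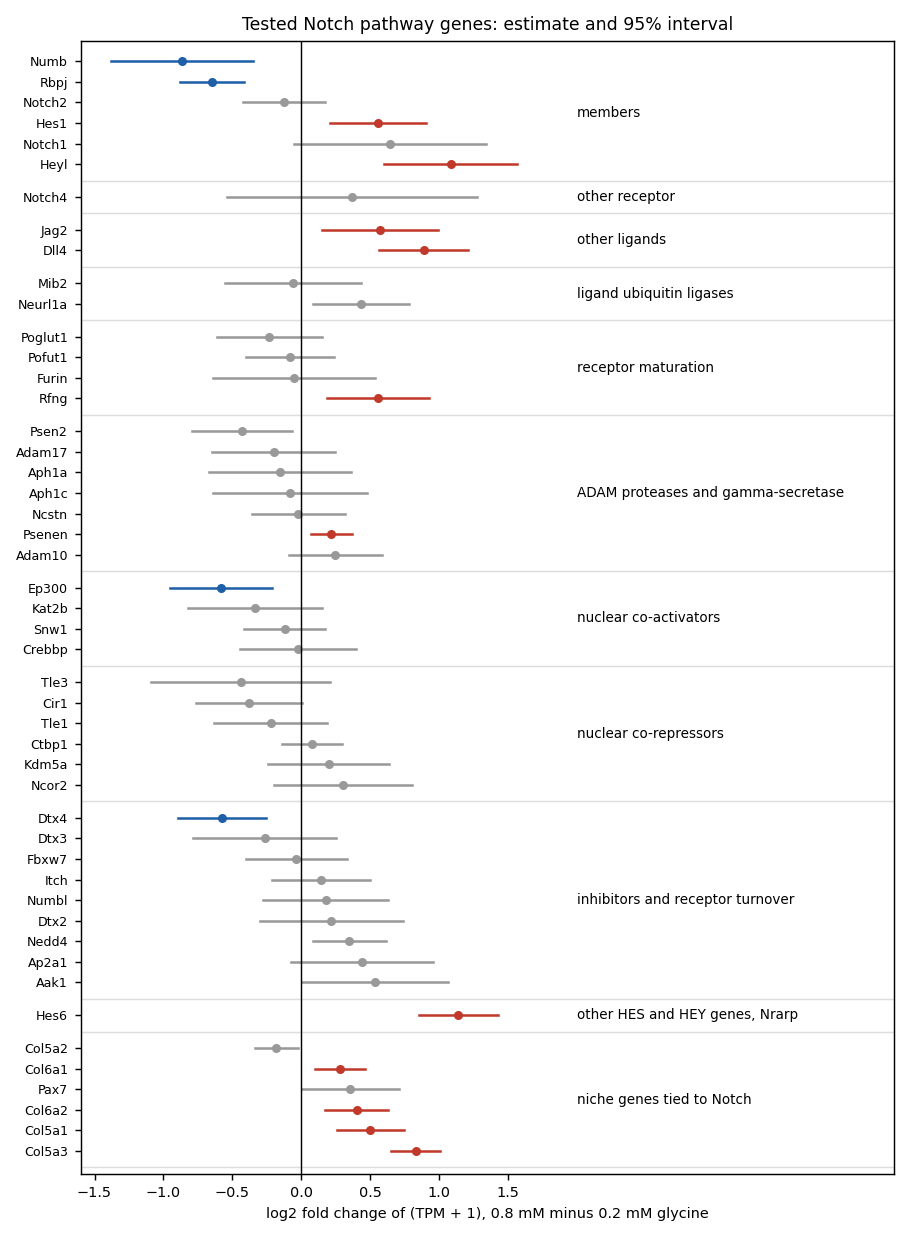
Points on the horizontal axis show how far 0.8 mM lay above or below 0.2 mM glycine on the log2(TPM + 1) scale, and lines the 95% interval of limma for the 6 tested members and 42 tested genes of the wider pathway, grouped by role. Genes that rose are red, genes that fell are blue and the rest are grey, from Hes6 at 1.14 to Numb at -0.86.

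Promoter sequence was read for members and named genes from RefSeq windows on GRCm38.p6, each from 250 bases before to 50 after a start. Of the 10 members 7 matched, all but Hes1, Hey1 and Heyl, with 11 windows. The RBPJ motif GTGGGAA, searched on both strands, was in 0 of the 11 windows and in 6.38% of all 32851 windows of the table. Its shorter core TGGGAA is contained in every match of the longer motif and was added after the data were seen. TGGGAA was in both windows of Rbpj and in no other member, and in 25.6% of all windows. The windows of Rbpj overlap, and a match at the same site lies in both. The E-box CAGCTG, a form bound by MyoD that reads the same on both strands, was in 1 window each of Dll1 and Jag1, in both windows of Hes6, in the window of Col5a3 and in 16.3% of all windows. A match is a description of letters, not evidence of binding. The 250 bases before a start are given for Notch3 and Numb, a member that was higher and one that was lower at 0.8 mM, and for Hes6, the named gene with the E-box in both its windows, printed in capitals. They are chr17:32166891-32167140, chr12:83921935-83922184 and chr1:91414039-91414288, all on the minus strand, read 5′ to 3′, and no GENCODE exon overlaps them.
Notch3: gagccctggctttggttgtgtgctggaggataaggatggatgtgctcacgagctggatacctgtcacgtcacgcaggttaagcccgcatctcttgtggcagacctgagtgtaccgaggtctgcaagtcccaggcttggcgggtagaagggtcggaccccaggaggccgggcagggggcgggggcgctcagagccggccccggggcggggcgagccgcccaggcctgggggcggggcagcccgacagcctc
Numb: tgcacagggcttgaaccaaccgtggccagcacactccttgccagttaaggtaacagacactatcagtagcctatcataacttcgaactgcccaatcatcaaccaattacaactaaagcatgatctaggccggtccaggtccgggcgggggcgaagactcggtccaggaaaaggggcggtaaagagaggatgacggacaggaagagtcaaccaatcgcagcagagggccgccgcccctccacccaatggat
Hes6: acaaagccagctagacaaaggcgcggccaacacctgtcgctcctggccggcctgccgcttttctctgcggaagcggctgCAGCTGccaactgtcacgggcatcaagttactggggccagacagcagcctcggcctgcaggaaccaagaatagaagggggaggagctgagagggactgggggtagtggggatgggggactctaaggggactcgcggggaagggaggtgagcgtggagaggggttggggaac

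Markers of several cell types were detected, and some of them rose or fell. The counts per cell type stand beside 16.7% of all tested genes that rose and 9.81% that fell. Myoblast genes were present in every library, and 6 of 7 rose, Pax7 being the exception. Pax7 came through the filter only by its libraries at 0.8 mM. The call of Itga7, 1 of the 6, was lost with no filter (limma adjusted p = 0.0618). The 7 myoblast genes summed to 383 to 450.1 TPM at 0.2 mM and 859 to 1072 TPM at 0.8 mM. Endothelial markers stand beside Notch1, Notch4 and Dll4, which vessels are known to express, and summed to 11.2 to 12.1 TPM at 0.2 mM and 20.2 to 29.7 TPM at 0.8 mM. All 4 of the 6 that were tested rose (Pecam1, Cdh5, Emcn and Cldn5), and none of the 6 was at 0 in any library. Pecam1 and Cdh5 came through the filter only by their libraries at 0.8 mM, with none at 0.2 mM reaching 1 TPM. Kdr and Tek were under the filter and their groups overlapped. With no filter neither of them passed (limma adjusted p = 0.365 and 0.71). Pericyte and smooth muscle markers stand beside Notch3 and Heyl, and summed to 4.62 to 5.67 and 7.83 to 9.46 TPM. Of these 6, Cspg4 rose, Pdgfrb did not pass, and Rgs5, Kcnj8, Abcc9 and Myh11 stayed under the filter, with Myh11 at 0 in 7 of 9 libraries. Cspg4 too came through the filter only by its libraries at 0.8 mM. In the fit with no filter, from which the call of Notch3 comes, Rgs5 and Kcnj8 rose as well (limma adjusted p = 0.0393 and 0.0462). Abcc9, Pdgfrb and Myh11 did not pass in that fit (limma adjusted p = 0.307, 0.195 and 0.912). Rgs5, Kcnj8 and Abcc9 were each higher in all libraries at 0.8 mM, with means 3.61, 3.50 and 3.69 times those at 0.2 mM. The mean of Abcc9 at 0.8 mM, 0.557 TPM, was raised by replicate 4 of that group, and the median was 0.423 TPM.

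Of the fibroblast markers 4 of 6 rose, and the 6 summed to 2144 to 2492 TPM at 0.2 mM and 2452 to 2973 TPM at 0.8 mM, most of it Dcn, which did not pass. Without Dcn the other 5 summed to 385 to 415 and 1019 to 1109 TPM. Leukocyte markers summed to 759.5 to 831 and 920.5 to 1296 TPM, with 2 of 6 that rose, 1 that fell (Cd68) and none at 0 in any library. Most of that sum was Lyz2, with a mean of 588 and 1013 TPM, and Cd68, with 182 and 57.6 TPM, and the other 4 summed to 12.2 to 15.3 and 11.8 to 18.0 TPM. Itgam, which rose beside Lyz2, came through the filter only by its libraries at 0.8 mM. The part of these cell types in the members' differences was not tested. In bulk RNA, fewer cells of a type and less RNA per cell cannot be told apart.

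**Figure D4:**
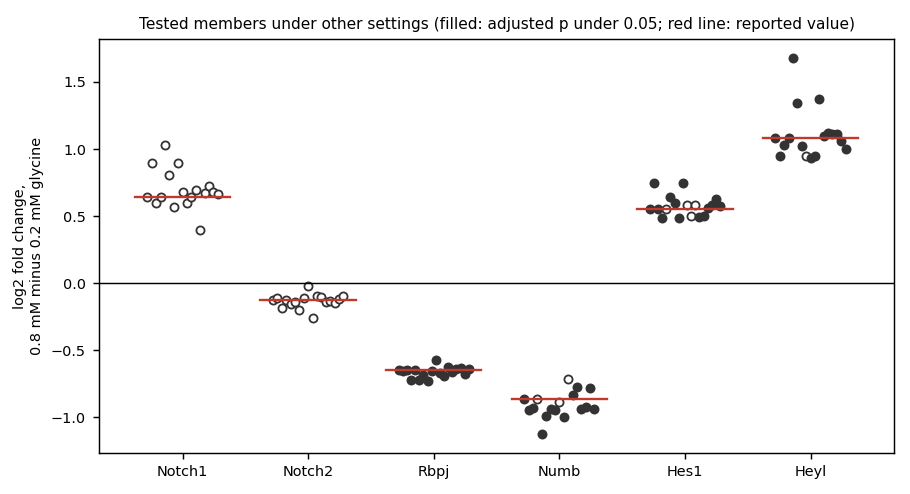
Each circle is the log2 fold change of 1 tested member, 0.8 mM minus 0.2 mM glycine, under 1 other setting, such as another pseudocount or a library left out, filled where the adjusted p was under 0.05. The red line is the reported value, and Rbpj is filled under all 18 settings plotted while Notch1 and Notch2 are open under all of theirs.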

How the data were processed

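RNA sequencing libraries were analysed, 3 at 0.2 mM and 6 at 0.8 mM glycine. The authors deposited 1 table of TPM for 53715 gene IDs with symbols, whose columns share a common sum, so depth is unknown. Per the submitters' processing notes, HISAT2 2.0.5, StringTie 1.3.3 and DESeq2 were used with mm10. Their order and settings, the annotation and the strand setting were not given in the sources used here.

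Genes reaching 1 TPM in 3 or more libraries (10049) were tested by limma 3.58.1 (R 4.3.3) over all 9 libraries. The model used log2(TPM + 1), that is a pseudocount of 1 TPM, and eBayes with a trend, and gave two-sided p-values, adjusted by Benjamini-Hochberg over all tested genes. The script was tested on simulated data. Gene positions are those of GENCODE M21 (GRCm38, the same assembly as mm10), matched on the ID without its version; 8 of the 10 members matched with it. Promoters came from RefSeq. Figures used matplotlib 3.10.9.

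The members and lists were chosen with earlier results of these data known. All 10 members were named whatever their result. Of the lists drawn up at the start, 1 gene of the wider pathway and 1 list of markers are not reported here and enter no list count. Each of 10 lists of the wider pathway added up to 3 genes of the smallest p among those that passed, or all tested genes where it had 1 or 2. Alternatives were pseudocounts of 0.1 and 0.5, no filter, a mean of 5 TPM as a stricter filter, median-ratio or quantile scaling, no trend, each library left out, and a block for the library number. Refits without a filter were added after the data were seen. The labels give no pairing beyond a shared library number, so the main model has no block. Correlations of deviations were 0.0229 to 0.0812 for same-numbered libraries, a range that overlapped that of the 15 other pairs.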

Additional observations from a re-analysis of the deposited data

Results flagged for a closer look

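In the 6 libraries at 0.8 mM, 3 of the 23 genes named by rule stood out for 1 library far above the rest of its group by Dixon's test at 95%, which flags about 1 in 20 groups by chance. Notch1 was at 5.53 TPM in 0.8 mM replicate 2, against at most 1.58 TPM in the other 5. Notch4 was at 4.34 TPM in 0.8 mM replicate 3, against at most 1.76 TPM. Jag1 was at 1.29 TPM in 0.8 mM replicate 5, against at most 0.636 TPM. The 3 values fell in 3 different libraries. Notch1 did not pass with or without its library, and the log2 fold change of Notch4 without replicate 3 of that group was 0.15 (limma adjusted p = 0.798).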

How the results depend on the processing

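With 1 choice changed at a time, Rbpj passed under 18 of 18 alternatives. Heyl missed the threshold in 1 of 17 (adjusted p = 0.0537, with the replicate block), Hes1 in 4 of 18 and Numb in 3 of 17, and no tested member changed sign. The number of members that passed, 4, was 2 under the stricter filter at a mean of 5 TPM, where 2 were tested, and 2 to 4 with 1 library left out. For the wider pathway the 11 that passed became 6 to 11 with 1 library left out, 7 of 62 tested with no filter, 7 of 17 tested under the stricter filter and 3 with the replicate block, which used libraries 1 to 3 of each group, against 7 in those libraries without it. For the whole table the 2669 became 2063 to 2559 with 1 library left out and 1713 with the replicate block, against 2048 in the same 6 libraries without it. Same-numbered libraries had correlations of deviations of 0.0229 to 0.0812, and the 15 other pairs of -0.104 to 0.0799. Replicate 1 at 0.2 mM correlated best with number 4 (0.0443), replicate 2 with number 1 (0.0799) and replicate 3 with its own number (0.0812). The labels give no other pairing, and the numbers were not taken to pair the samples. Mib2, which did not pass, changed sign with libraries 1 to 3 (0.00593, with and without the replicate block) and ranged from -0.19 to 0.0421 with 1 library left out. In refits that joined no filter with another choice, Rbpj, Notch3 and Hey1 passed in 11 of 12 each, the exception being the replicate block (0.147, 0.142 and 0.115), while Heyl passed in 9, Numb in 2 and Hes1 in 1. With no filter, Jag2, Psenen, Rfng and Ep300 missed the threshold (adjusted p = 0.0791, 0.059, 0.0686 and 0.0579). At the low TPM of Notch3, Hey1, Dll1 and Jag1 precision cannot be judged, because read numbers are unknown.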
